A study of Mus musculus with 2 samples.

Results

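H3K36me2 is the dimethylated form of lysine 36 on histone H3. It was mapped in regulatory T (Treg) cells, the CD4 T cells that restrain immune responses, and the regions described here are the short ones that lie inside very long genes. A member is a called region of under 1000 bp on chromosomes 1 to 19 or X. It overlaps the body of a protein-coding gene of at least 300 kb and no protein-coding gene of under 10 kb. By this rule 6457 of the 94272 called regions of both libraries were members. The knockout library held 2476 of its 39745 regions (6.23%) and the wild-type library 3981 of its 54527 regions (7.30%).

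The Nsd2 knockout group was 1 library of Treg cells from spleens of mice in which Nsd2 was knocked out conditionally in Treg cells. The wild-type group was 1 library of splenic Treg cells with no such deletion, and both were on the C57BL/6 background. The sources used here do not state the Cre driver, the antibody, or the number, age and sex of the animals. With 1 library per genotype no difference has a replicate check, no test between genotypes was made, and all intervals are exact binomial 95% intervals for counting error only.

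NSD2 belongs to a family of methyltransferases that place H3K36me2, together with NSD1, NSD3 and ASH1L. The mark spreads over bodies of active genes and over intergenic chromatin, where it opposes Polycomb methylation of H3K27, and SETD2 adds a further methyl group in transcribed bodies. Very long genes consist almost wholly of introns, and many of them serve neurons and muscle, while a smaller number are used by lymphocytes. Exons and introns were not assigned here, because the annotation used gives gene starts and ends only.

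The libraries had 14789700 tags (knockout) and 17158154 tags (wild type). The authors' caller required 12 tags per 500 bp peak in the knockout and 13 in wild type, which scaled to 10000000 tags is 8.11 and 7.58. The threshold was therefore stricter in the shallower knockout library. Numbers of regions are also given with the peak scores of wild-type regions held to the knockout threshold scaled to their library, 13.9 tags. Knockout regions were not filtered by score in this, and 31.4% of knockout members scored at or below their own 12 tags. The setting is thus applied to 1 side only. All 8 listed T cell markers held a region in each library and 45.2% of their bodies was covered in the knockout against 42.9% in wild type. Of 4 Treg markers 3 held a region in each library. Of 14 markers of other cell types, 4 were marked in the knockout and 8 in wild type, with 0.61% and 1.80% of their bodies covered. Their part in the results was not tested.

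Few member regions lay at annotated starts, and the sequences of those found in both libraries are shown because they tie a called region to a named promoter. RefSeq promoter windows of 300 bases (GRCm38.p6, the assembly called mm10) were on hand for 425 of the 557 long genes, 639 windows in all. Knockout members touched 12 of these windows and wild-type members 13, and 3 windows were touched in both. They belong to Fto, encoding an RNA demethylase, Bbs9, encoding a subunit of the ciliary BBSome, and Agbl1, encoding a protein deglutamylase. Each window lay wholly inside a member region of each library. Sequences run 5′ to 3′ on the + strand, with CpG dinucleotides in capitals.
Fto, chr8:91313275-91313574: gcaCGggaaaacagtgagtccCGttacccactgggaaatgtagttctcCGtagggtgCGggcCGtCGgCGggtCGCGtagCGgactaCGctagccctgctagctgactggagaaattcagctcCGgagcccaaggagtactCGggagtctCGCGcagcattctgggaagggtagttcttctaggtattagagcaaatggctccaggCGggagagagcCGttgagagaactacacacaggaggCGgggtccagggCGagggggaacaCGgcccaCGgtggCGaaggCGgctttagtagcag
Bbs9, chr9:22475465-22475764: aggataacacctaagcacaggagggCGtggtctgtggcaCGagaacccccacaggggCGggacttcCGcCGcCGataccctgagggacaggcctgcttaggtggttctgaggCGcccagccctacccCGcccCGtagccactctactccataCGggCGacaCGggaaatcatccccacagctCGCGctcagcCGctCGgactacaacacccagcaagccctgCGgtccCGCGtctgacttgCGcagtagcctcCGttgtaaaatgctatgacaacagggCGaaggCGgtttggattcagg
Agbl1, chr7:76229637-76229936: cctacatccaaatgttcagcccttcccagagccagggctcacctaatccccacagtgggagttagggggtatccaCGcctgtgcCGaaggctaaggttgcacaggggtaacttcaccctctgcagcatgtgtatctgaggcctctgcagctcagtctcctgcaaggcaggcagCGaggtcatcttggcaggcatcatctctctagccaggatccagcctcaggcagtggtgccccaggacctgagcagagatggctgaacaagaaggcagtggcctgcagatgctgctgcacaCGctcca

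The region over the Fto window had 10.5 normalised tags (tags scaled to 10000000 per library) in the knockout and 8.16 in wild type. The Bbs9 region had 15.9 normalised tags in the knockout and 8.16 in wild type, and the Agbl1 region 18.3 in the knockout and 13.4 in wild type. The windows of Fto and Bbs9 hold 23 CpG dinucleotides each and that of Agbl1 holds 4. The median over the 22 windows touched in either library was 21.5 CpG, against 13 over all 639 windows of long genes.

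Members also lay over microRNA genes hosted by long genes. Of 57 RefSeq hairpins inside long genes, 4 were touched by a member, in each case in a single library. One wild-type region inside Aopep, an aminopeptidase gene (chr13:63299906-63300821), held 14.0 normalised tags and covered the hairpins of Mir23b and Mir27b, both widely studied in T cells. It shared no base with any knockout region. A wild-type region of 701 bp inside Hecw2, a ubiquitin ligase gene, covered Mir7681 with 9.03 normalised tags, again with no knockout region over it. The knockout region of 628 bp near Mir378b, inside Msi2, held 11.5 normalised tags and reached 8 bases of the 92-base hairpin, outside the mature sequence. The mature sequences of these genes follow as RefSeq lists them, 5′ to 3′ with the seed (bases 2 to 8) in capitals. No seed was shared between them.
mmu-miR-23b-5p: gGGUUCCUggcaugcugauuu
mmu-miR-27b-5p: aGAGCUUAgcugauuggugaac
mmu-miR-27b-3p: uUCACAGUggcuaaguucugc
mmu-miR-7681-5p: aUCCUGUCcuugcccucucu
mmu-miR-7681-3p: aGAAAGGGcacugacaggauag
mmu-miR-378b: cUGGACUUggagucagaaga

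Member regions were small and close to the calling threshold in both genotypes. Regions of the caller's minimum length, 500 bp, made up 68.2% of knockout members and 64.2% of wild-type members. The median normalised tag count was 8.45 in the knockout and 8.16 in wild type, with quartiles of 8.11 and 10.5 in the knockout and 7.58 and 10.2 in wild type. The authors' peak score stood at or below the tag threshold in 31.4% of knockout members and 28.5% of wild-type members. In the knockout 10 members reached 20 normalised tags, and in wild type 4 did. Nearly all members, 99.6% in the knockout and 99.5% in wild type, lay wholly within a long gene. Just inside the length limit, 20 knockout members of 950 bp and over had a median of 16.9 normalised tags and 44 wild-type members 15.3. Just outside it, 22 knockout regions within 50 bp above it had 17.8 and 42 wild-type regions 16.9.

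The member with the most normalised tags was the same site in each library. Inside Cmss1 (chr16:57391106-57391905) a knockout region held 72.0 normalised tags, and in wild type a region offset by 4 bp at its start held 61.2. Its peak scores were 15 in the knockout and 17.5 in wild type, whereas members with fewer tags scored up to 32 and 25. It was thus not the strongest by score. Next in the knockout came a region in Rora, a nuclear receptor gene of lymphocytes, with 34.8 normalised tags, and one in Camk1d, a calmodulin-dependent kinase gene, with 28.4. Next in wild type came a region in Vti1a, a vesicle SNARE gene, with 25.6, and one in Fars2, a mitochondrial tRNA synthetase gene, with 20.1 and no knockout region over it. A wild-type region in Dlg2, a synaptic scaffold gene, had the same 20.1 normalised tags and was shared with the knockout. Among pairs of overlapping members the next highest after Cmss1 were in Erc2, an active zone gene of synapses, with 20.3 normalised tags in the knockout and 19.5 in wild type, and in Kif26b, a kinesin family gene, with 20.3 and 19.2.

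Very long genes were thinly marked per base, in both genotypes. Over the 317 Mb of their bodies the knockout had 7.82 members per Mb and wild type 12.6. Short regions were denser in shorter genes, at 36.2 per Mb in the knockout and 42.2 in wild type for genes of 10 to 30 kb. In genes of 100 to 300 kb the density was 19.99 per Mb in the knockout and 30.2 in wild type. Among the long genes themselves it was 12.4 and 20.5 per Mb for 300 to 500 kb, 7.005 and 11.01 for 500 to 1000 kb, and 1.65 and 2.18 in the 59 genes of at least 1000 kb. On either side of the limit, genes of 300 to 350 kb had 13.03 per Mb in the knockout and 19.7 in wild type, and genes of 250 to 300 kb had 16.8 and 26.2.

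**Figure D1:**
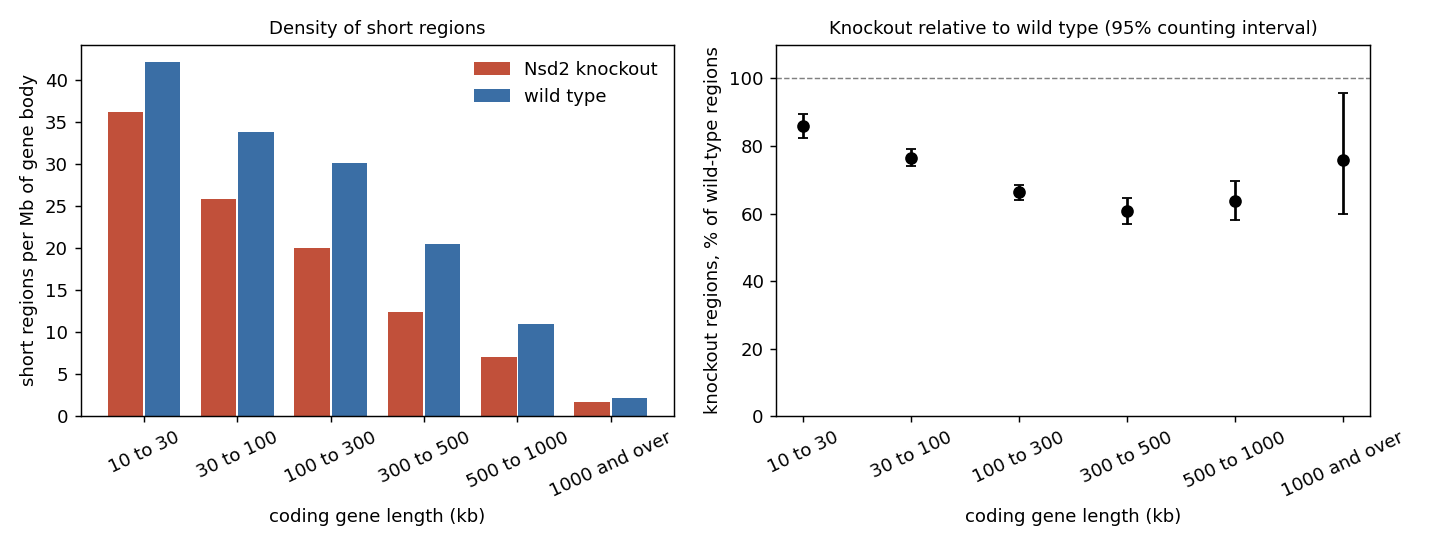
Short regions per Mb of gene body (left, bars for the Nsd2 knockout and wild-type library) and knockout regions as a percentage of wild-type regions (right, points with 95% counting intervals) by coding gene length in kb. Density was lower in each longer class in both libraries, from 36.2 and 42.2 per Mb to 1.65 and 2.18 per Mb, and the percentage was lowest for genes of 300 to 500 kb, at 60.6%.

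Knockout members were 62.2% as many as wild-type members (95% interval 59.1 to 65.4) and covered 61.2% of their length. The same percentage was 74.6% (73.1 to 76.1) for short regions in other genes of 10 kb and over, 70.1% (68.4 to 71.7) outside gene bodies and 97.6% (91.3 to 104) for those touching a gene of under 10 kb. Knockout members were fewer on all 20 chromosomes, and on 17 of them the percentage was below that of the other short regions. At the scaled tag threshold for wild-type regions of 500 bp the members' percentage was 99.0% (93.6 to 105), and with wild-type regions of all lengths held to it, 122% (115 to 129). The level of the percentage thus depended on the threshold, and regions were not stitched anew at it. Knockout regions were not filtered by score at either setting. The order of the classes stayed: at the threshold for 500 bp regions, other genes had 114%, regions outside genes 110% and those touching compact genes 147%, and at the threshold for all lengths the values were 143%, 136% and 181%. Longer regions inside the same long genes, of 1 kb and over, numbered 281 in the knockout and 525 in wild type.

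Most members of one library had no counterpart in the other. Of knockout members 776 (31.3%, 29.5 to 33.2) shared at least 1 base with a wild-type region, against 33.7% of all knockout short regions. Of wild-type members 685 (17.2%, 16.0 to 18.4) shared a base with a knockout region, against 22.8% of all wild-type short regions. The other list held a longer region over 186 of the knockout members and over 93 of the wild-type members. Sharing went up with length, from 24.5% of knockout and 12.3% of wild-type members of 500 bp to 53.2% and 30.1% of those of 700 bp and over. Shared members had more tags, with medians of 9.80 in the knockout and 9.62 in wild type, against 8.45 and 8.16 for the unshared. How much repeat libraries of a single genotype would share is unknown.

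Overlapping members of both libraries were compared in pairs. The 591 pairs shared a median of 462 bp, with centres 116 bp apart. Their median normalised tag count was 9.47 in the knockout and 9.33 in wild type, and the ratio within a pair had a median of 1.03 (quartiles 0.82 and 1.25). The knockout value was the higher in 311 pairs and the lower in 279, with 1 tie. A pair needs a member in each library. Sites called in a single library, or as a longer region in the other, are left out. Both regions also had to pass the caller's threshold, which when scaled was 8.11 in the knockout and 7.58 in wild type. It is not a floor on the normalised tag count, which went down to 6.76 among knockout and 6.12 among wild-type members. The ratio within pairs therefore depends on how pairs were selected. Whether signal at these sites differed between genotypes was not tested.

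Members were concentrated in a minority of the long genes. Of 557 long genes, 338 held a member in both libraries, 46 in the knockout only, 49 in wild type only and 124 in neither. None of those 124 held a longer region either. The 111 genes (20%) with the most members held 67.4% of knockout and 69.7% of wild-type members. Members of the knockout were spaced at a median of 11.99 kb from the nearest other member and those of wild type at 7.35 kb. The nearest region of 1 kb and over lay at a median of 164 kb in the knockout and 82.3 kb in wild type.

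Lists of long genes were compared by their pooled density. They were chosen with earlier results of these data known. Genes of lymphocyte signalling and transcription were the most densely marked, with 414 members in the knockout and 564 in wild type over the 24 of 40 listed genes that reach 300 kb, or 33.5 and 45.6 per Mb. Widely expressed genes (23 of 30 listed) held 283 and 566 members, or 19.6 per Mb in the knockout and 39.3 in wild type. Synaptic and neuronal adhesion genes, 49 in number and 53.9 Mb long, had 1.78 and 1.73 per Mb, and 20 of them held no member in either library. Channel and neurotransmitter receptor genes had 4.24 per Mb in the knockout and 5.99 in wild type. The list of phosphodiesterases, kinases and phosphatases had 3.25 and 6.04 per Mb, and that of developmental regulators of transcription 10.1 and 15.2. As drawn up, the former also named Magi1, Magi2, Rgs6, Rgs7, Sgcd, Sgcz and Dmd. The latter also named the RNA-binding protein genes Rbfox1, Rbfox3, Rbms3, Khdrbs2 and Khdrbs3, and Nkain2. Both names are used below as labels of whole lists. Per gene, the median was 30.1 per Mb in the knockout and 46.4 in wild type for the lymphocyte list, 12.05 and 37.1 for the widely expressed list and 0 and 0 for the synaptic list, beside 3.26 and 4.66 over all long genes.

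**Figure D2:**
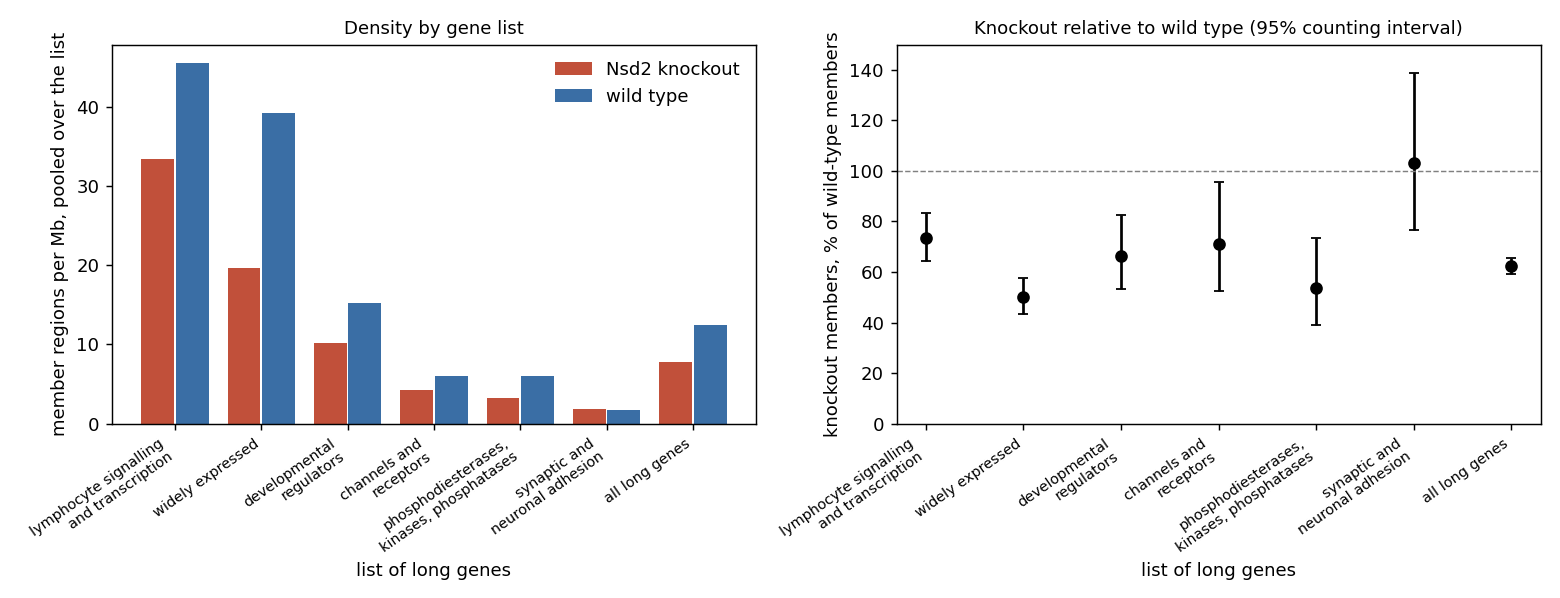
Member regions per Mb pooled over each list of long genes (left, bars for the Nsd2 knockout and wild-type library) and knockout members as a percentage of wild-type members (right, points with 95% counting intervals). The lymphocyte list stood at 33.5 and 45.6 per Mb and the synaptic list at 1.78 and 1.73 per Mb, with percentages of 73.4% and 103%.

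The knockout was then set against wild type within each list. Knockout members were 73.4% of wild-type members in the lymphocyte list (64.5 to 83.5), 50% in the widely expressed list (43.2 to 57.8) and 103% in the synaptic list (76.8 to 139). The synaptic list held 96 knockout and 93 wild-type members, of which Opcml alone held 12 and 0. Its value above equal numbers thus rests on that gene. They were 70.9% for channels (52.4 to 95.6), 53.8% for phosphodiesterases, kinases and phosphatases (39.1 to 73.5) and 66.5% for developmental regulators (53.5 to 82.6), beside 62.3% over all long genes. In the lymphocyte list 18 genes had fewer members in the knockout and 5 had more, and in the widely expressed list 19 had fewer and 2 more. In the synaptic list 14 had fewer and 11 more, among phosphodiesterases, kinases and phosphatases 16 and 1, and among developmental regulators 13 and 6. The channel list went the other way by gene, with 7 fewer and 10 more and a median of 1.49 per Mb in the knockout against 0 in wild type. Of its 31 genes 17 held a knockout member and 15 a wild-type member, so that median rests on few regions. Among its 12 genes with at least 5 members, 3 had at most 50% of the wild-type number and 1 at least 2 times it. Without Cacna1d, the channel gene with the most members, the pooled percentage of the list was 87.0% (61.8 to 122). With wild-type regions of all lengths held to the scaled threshold the lymphocyte list stood at 138% (118 to 160), the widely expressed list at 94.97% (80.4 to 112) and the synaptic list at 204% (143 to 296), so the 3 lists kept their order while each level moved. At that threshold the channels stood at 150%, the phosphodiesterase list at 103% and developmental regulators at 136%. The channels thus passed from below the lymphocyte list to above it, so the order over all 6 lists changed. The differences between lists were not tested.

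Among individual genes with at least 5 members over both libraries, 277 in all, the knockout number was at most 50% of the wild-type number in 123 (44.4%) and at least 2 times it in 11 (3.97%). Under the same rule over all 2987 coding genes of 10 kb and over with enough short regions, 32.0% were that much lower and 7.87% that much higher. In the lymphocyte list 8 of 24 such genes were lower by this rule and none higher, and in the widely expressed list 16 of 21 were lower and none higher. These counts moved with the threshold. With wild-type regions of 500 bp held to the scaled threshold 50 of 241 long genes were lower and 36 higher, and with regions of all lengths held to it 27 of 229 were lower and 53 higher. With all lengths held to it, 2 of 21 lymphocyte genes were lower and 5 higher, and 2 of 21 widely expressed genes were lower and 1 higher. With knockout numbers divided by the ratio of all short regions, 71 of 277 were lower and 24 higher. Shares over all coding genes were taken at the authors' thresholds only. Whether long genes stood apart from other genes at the remaining settings was therefore not tested.

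**Figure D3:**
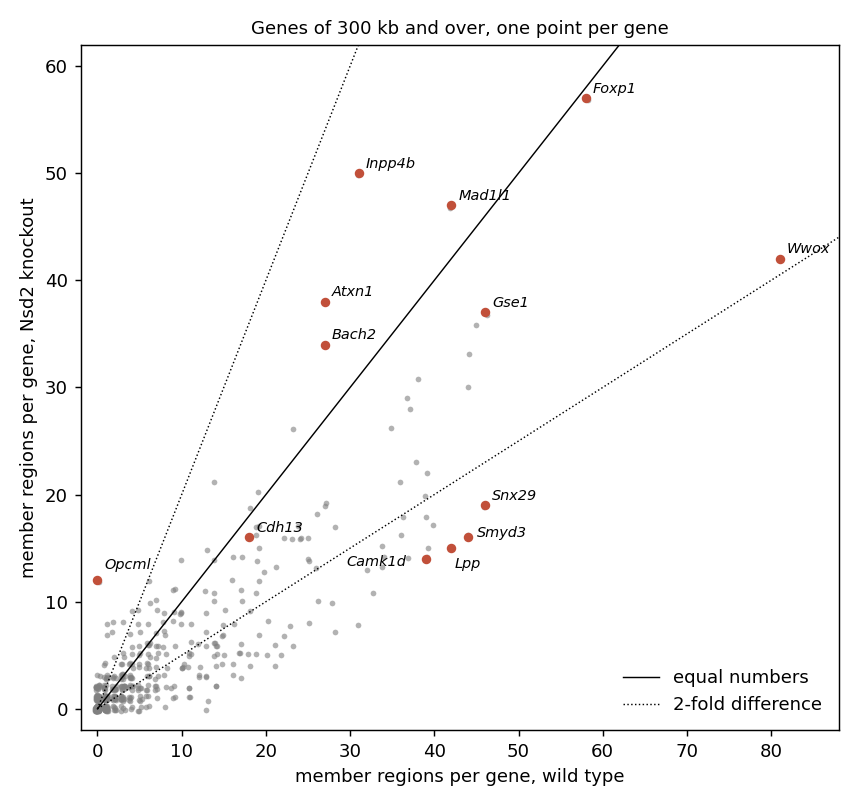
Member regions per gene in the Nsd2 knockout library (vertical) against the wild-type library (horizontal) for the 557 genes of 300 kb and over, with a small random offset on unnamed points. Wwox, with 42 knockout and 81 wild-type members, lies close to the lower dotted line of a 2-fold difference, and Inpp4b, with 50 and 31, lies above the line of equal numbers.

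Foxp1, a forkhead factor that keeps naive T cells quiescent (chromosome 6, 98925342 to 99522746), was the richest lymphocyte gene. It held 57 members in the knockout and 58 in wild type, of which 23 and 22 shared a base with the other library. The numbers were nearly equal, and fewer than 50% of the regions were shared in each library. This was still a larger share than over all members, where it was 31.3% in the knockout and 17.2% in wild type. Inpp4b, encoding a phosphoinositide phosphatase (chromosome 8, 81342266 to 82134312), held 50 in the knockout and 31 in wild type, the largest excess by number. Knockout regions there ran to 759 kb from the lower end of the gene body and wild-type regions to 512 kb, and 13 and 17 members were shared. Bach2, a repressor that supports Treg cells by restraining effector differentiation, held 34 in the knockout and 27 in wild type, beside 14 and 27 longer regions. Bach2 thus had more short and fewer long regions in the knockout. Dock2, a guanine nucleotide exchange factor of lymphocyte migration, held 21 and 14. Prkca, encoding protein kinase C alpha, held 28 and 37. Of the genes in this paragraph only Inpp4b had an interval of the percentage that excluded equal numbers, at 101 to 261%.

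Other lymphocyte genes had fewer members in the knockout. Lpp, encoding a LIM protein of focal adhesions (chromosome 16, 24393350 to 24992578), held 15 members in the knockout and 42 in wild type, and 8 and 3 of them shared a base with the other library. Camk1d held 14 in the knockout and 39 in wild type, and Rora 20 and 39. With wild-type regions of all lengths held to the scaled threshold, Lpp had 15 knockout and 22 wild-type members and Camk1d 14 and 19. Both were still fewer by number. The intervals of the percentage, 32.9 to 138 for Lpp and 34.2 to 155 for Camk1d, include equal numbers. At that threshold Foxp1 had 57 and 35, Inpp4b 50 and 18, Dock2 21 and 7, Bach2 34 and 19, and Prkca 28 and 17. The interval lay above equal numbers for Foxp1 (105 to 256%), Inpp4b (159 to 506%) and Dock2 (123 to 835%). It included them for Bach2 (99.2 to 332%) and Prkca (87.1 to 321%). Rora was not counted at that threshold.

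**Figure D4:**
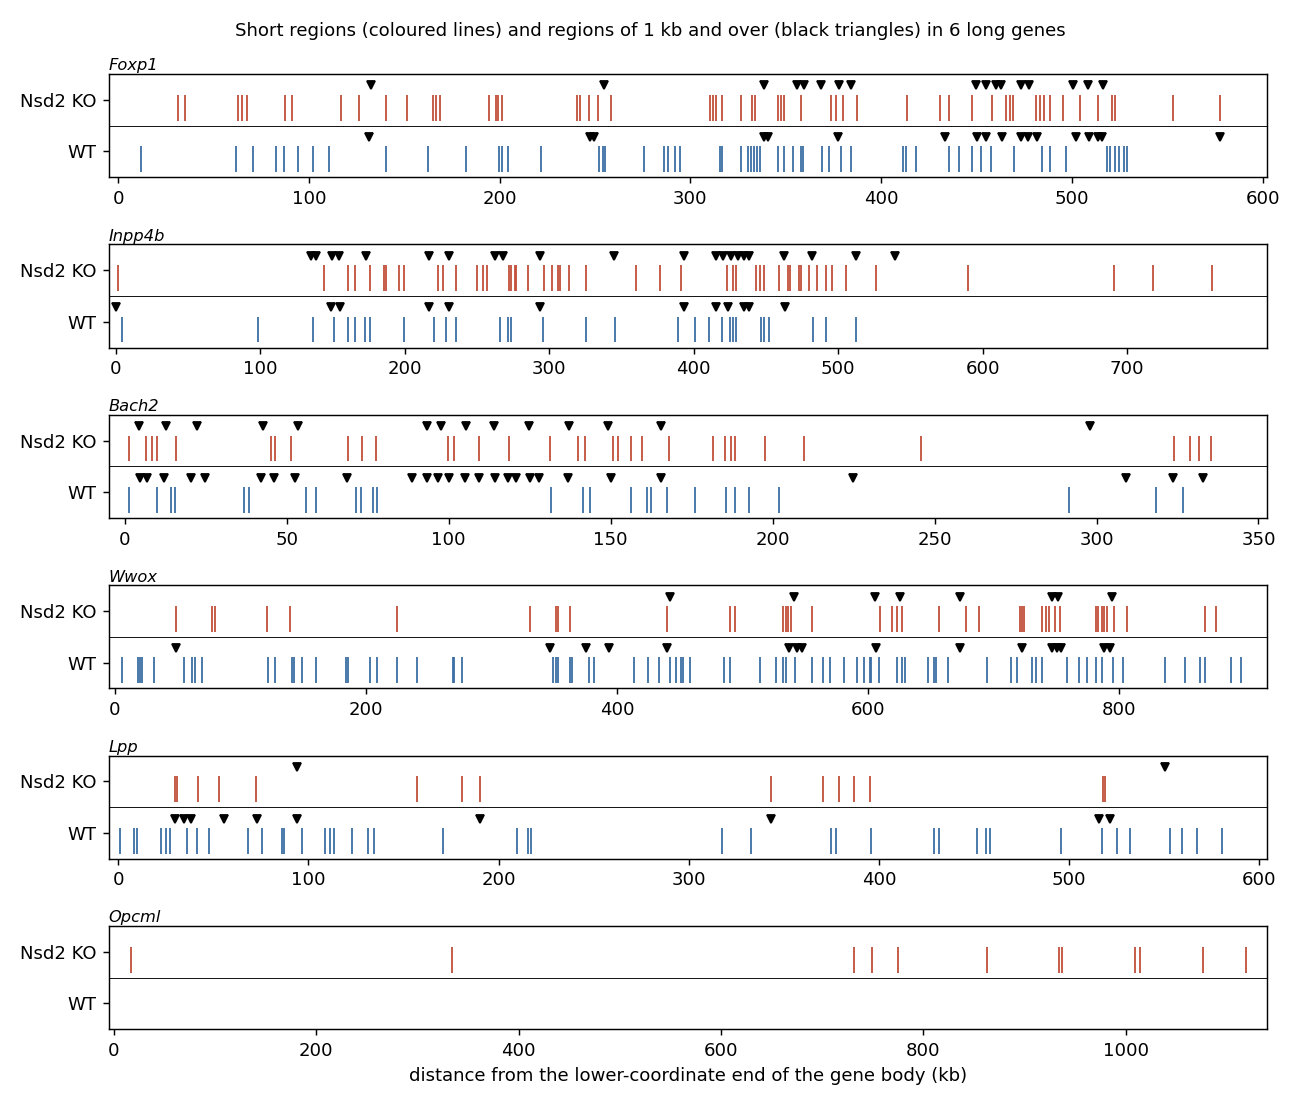
Positions of short regions (coloured lines) and of regions of 1 kb and over (black triangles) along 6 long genes, in kb from the lower-coordinate end of the gene body, with the Nsd2 knockout row above the wild-type row. Foxp1 was marked along its length in both libraries with 57 and 58 short regions, Lpp and Wwox were sparser in the knockout, and Opcml held 12 knockout and no wild-type regions.

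The widely expressed list held the gene with the most members over both libraries at the authors' thresholds. Wwox, encoding an oxidoreductase at a fragile site of the genome (chromosome 8, 114439635 to 115352712), held 42 members in the knockout and 81 in wild type, the largest deficit by number, and 8 and 16 longer regions. At the scaled threshold for all lengths it held 42 and 48. In the knockout alone Foxp1, Inpp4b and Mad1l1 held more than Wwox, and per Mb Mad1l1 stood higher in each library, at 150 and 134 against 46.0 and 88.7 for Wwox. Smyd3, a lysine methyltransferase gene, held 16 in the knockout and 44 in wild type, and Rad51b, a recombination gene, 22 and 39. Snx29, a sorting nexin gene on no list, held 19 and 46, with 2 of the 46 shared. At the scaled threshold for all lengths Smyd3 held 16 and 21, Snx29 19 and 22, and Rad51b 22 and 21, so that the lower number at Rad51b was not kept. The intervals at that threshold include equal numbers for these genes and for Wwox. Mad1l1, a spindle checkpoint gene, held 47 members in the knockout and 42 in wild type, while its longer regions numbered 3 and 21. Atxn1, encoding ataxin 1, held 38 and 27, with 0 and 5 longer regions. Intervals for the short regions of Mad1l1 and Atxn1 include equal numbers at the authors' thresholds. At the scaled threshold for all lengths Mad1l1 held 47 and 25 (113 to 319%) and Atxn1 38 and 14 (144 to 542%). Both intervals there lay above equal numbers. Mad1l1 and Atxn1, like Bach2, had more short and fewer long regions in the knockout. Inpp4b did not, with 22 longer regions in the knockout and 12 in wild type.

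Of the remaining genes with the most members, all on no list, each had fewer in the knockout at the authors' thresholds. Gse1 held 37 in the knockout and 46 in wild type. Msi2, an RNA-binding protein gene of blood stem cells, held 36 and 45, Sorcs2, a sorting receptor gene, 33 and 44, and Hivep3, a zinc finger factor gene, 30 and 44. Ttc28 held 31 and 38, Cdh23, a cadherin gene of hair cells, 29 and 37, and Foxn3, a forkhead repressor gene, 26 and 35. At the scaled threshold for all lengths each of these 7 had more members in the knockout, from 111% of wild type for Hivep3 to 153% for Cdh23. At these genes the direction rests on the threshold, and the intervals at both settings include equal numbers.

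Among genes of neurons and other tissues, those with the most members of each list and Opcml are given. Cdh13, encoding T-cadherin, held 16 members in the knockout and 18 in wild type over 1185 kb. Dscam, a neuronal adhesion gene, held 14 and 17, and Csmd2 11 and 9. Opcml, a gene of the IgLON adhesion family (chromosome 9, 27790716 to 28925410), held 12 members in the knockout and none in wild type, spread from 17.1 to 1119 kb of its body. No longer region lay in Opcml in either library. Cacna1d, an L-type calcium channel gene, held 11 in the knockout and 33 in wild type, Cacna1c, another, 8 and 11, and Grik4, a kainate receptor gene, 5 and 18. Ptprn2, a phosphatase-like gene of secretory vesicles, held 16 and 19, Pde10a 11 and 13, and Magi2, a synaptic scaffold gene, 7 and 13. Among developmental regulators Sox5 held 23 and 38, Prdm16, a regulator of brown fat, 16 and 25, and Tshz2 20 and 19. At the scaled threshold for all lengths Cacna1d, with 11 and 21, and Grik4, with 5 and 7, still had fewer in the knockout and Magi2 had 7 in each. There Sox5 (23 and 19), Prdm16 (16 and 11), Cdh13 (16 and 10), Dscam (14 and 7), Cacna1c (8 and 3), Ptprn2 (16 and 13) and Pde10a (11 and 8) turned to more in the knockout. These are differences in number only. For each of these genes, and for Cacna1d, Grik4 and Magi2, the interval at that threshold includes equal numbers. Csmd2 had 11 and 2 there, with an interval above equal numbers (120 to 5106.5%). Tshz2 had 20 and 13, with an interval that includes them (72.8 to 337%). Opcml had 12 and 0, for which no percentage exists. The longest genes without a member in either library were Ptprd (2271 kb), Dpp10 (1514 kb) and Il1rapl1 (1375 kb), all of synapses or neuronal channels.

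Within genes, members lay along the whole body. In the 425 long genes with a known strand, 54.1% of knockout members (51.9 to 56.4) and 54.2% of wild-type members (52.4 to 55.9) lay in the 50% of the body farther from the annotated start. The last 10% of the body held 11.1% of knockout and 12.3% of wild-type members and the first 10% held 9.79% and 8.90%. The first 5 kb from the start was nonetheless the densest stretch by distance, with 16.5 members per Mb in the knockout and 20.7 in wild type, against 7.12 and 11.6 beyond 200 kb. Knockout members were 55.8% (47.0 to 66.1) of wild-type members in the last 10% and 67.9% (56.1 to 81.9) in the first 10%, intervals that overlap.

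**Figure D5:**
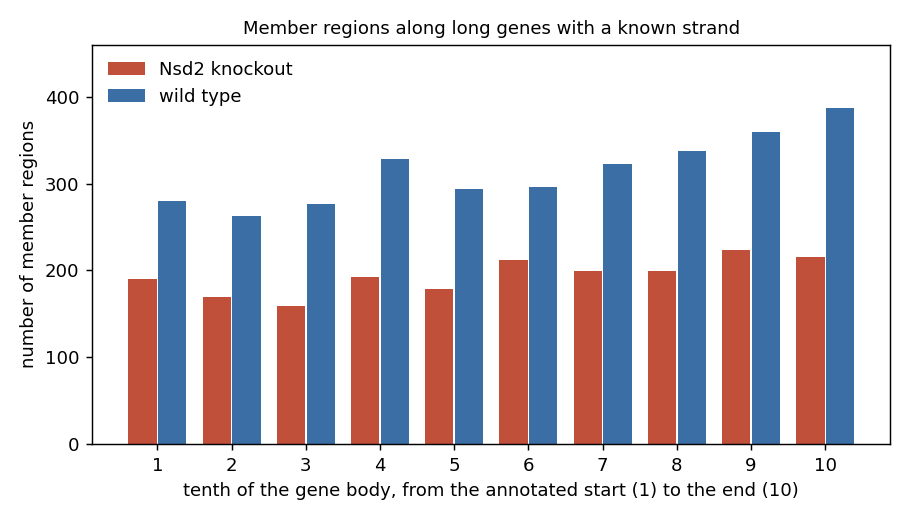
Number of member regions in each 10% of the gene body, from the annotated start (1) to the end (10), in the 425 long genes with a known strand, with bars for the Nsd2 knockout and wild-type library. Knockout bars run from 159 to 224 and wild-type bars from 263 to 387, and the wild-type bar is the taller in all 10 classes.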

How the data were processed

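H3K36me2 was profiled in splenic Treg cells from histone-DNA complexes pulled down with an antibody, using a commercial kit for in-situ ChIP libraries, per the labels' protocols. Trim Galore, Bowtie2, Picard, HOMER and deepTools and the mm10 build are named in the submitters' processing notes, without versions. Regions were called by the authors with HOMER findPeaks in histone style on each library alone, without a control library, per the file headers, by stitching peaks of 500 bp that passed a Poisson threshold of 0.001. The signal of a region, its normalised tag count, was scaled by the authors so that each library counts as 10000000 tags, as the headers of the files state, which hides any genome-wide change. The deposited score is on the scale of tags per peak, judged from its values. The clonal fold ratio deposited by the authors was not used.

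Region length was end minus start. Gene bodies came from the RefSeq table of GRCm38.p6. Overlaps of at least 1 bp were computed in Python 3.11.15 with numpy 2.4.6, pandas 2.3.3 and scipy 1.17.1, checked against simulated regions with known answers. Intervals are exact Clopper-Pearson intervals, for a ratio taken from the knockout share of both numbers. Tags are PCR reads without molecular identifiers, and regions of a library are not replicates. The genes named were the 15 with the most members, the 5 with the largest deficit and the 5 with the largest excess, the 3 richest of each list and the 3 longest without members. The regions named were the 3 with the most normalised tags in each library and the 3 pairs with the highest smaller count. Hosts of the printed promoters and microRNAs, and the numbers for Rora, were added after their values were seen. Members and the 6 lists were chosen with earlier results of these data known.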

Additional observations from a re-analysis of the deposited data

How the results depend on the processing

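No paired analysis was possible because each genotype had 1 library. The number of knockout members stayed below the wild-type number under all alternatives but the scaled threshold for all lengths. That setting, added after the data were seen and applied to wild-type regions only, gave 122%. The scaled threshold for 500 bp regions turned the lists of lymphocyte genes (112.2%), channels (127.9%) and developmental regulators (110%) above 100%. That for all lengths did so for these (137.5%, 150% and 136.2%) and for phosphodiesterases, kinases and phosphatases (103.2%). The percentage was 66.0% for regions of 500 bp, also in covered length, 72.3% (covered length 69.2%) for at least 10 normalised tags, and 99.0% (90.2%) at the scaled threshold (13.9 wild-type tags) for 500 bp regions. Density per Mb in the knockout and wild type was 10.1 and 16.2 in genes of at least 200 kb, 4.77 and 7.33 in genes of at least 500 kb, 5.33 and 8.07 for regions of 500 bp, 8.505 and 13.9 for regions under 2000 bp, 2.29 and 3.17 for at least 10 tags, and 8.14 and 13.1 on autosomes. At the scaled threshold wild type had 7.90. Shared members in the knockout and wild type were 24.5% and 12.3% for 500 bp, 34.6% and 20.6% under 2000 bp, 25.6% and 20.9% at the scaled threshold, 25.9% and 14.0% with at least 50% covered, and 40.8% and 23.6% within 1000 bp; in genes of at least 500 kb the knockout had 27.8%. The ratio of median tags, 1.04 at first, was 1.01 for at least 10 tags and 0.88 at the scaled threshold, below 1 because low wild-type regions are left out there. Long genes at most 50% and at least 2 times wild type numbered 223 and 17 of 514 counted in genes of at least 200 kb, 37 and 5 of 104 in genes of at least 500 kb, 50 and 36 of 241 at the scaled threshold, and 71 and 24 of 277 after dividing knockout numbers by the ratio of all short regions. Those at least 2 times were 28 of 245 for regions of 500 bp and 5 of 193 with at least 10 members, and those at most 50% were 42 of 115 for at least 10 tags. No share over all coding genes was taken at these settings. Except where the construction shows it, the cause was not tested. Without its richest gene, the lymphocyte list stood at 70.6%, the widely expressed list at 49.7% and the channel list at 87.0%. The median member lay about 1 tag or less above the threshold in each library, and the effect of depth was not tested.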
